A study of Mus musculus with 9 samples.

Results

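The interleukin-1 family was followed through 9 mouse genes: the ligands *Il1a*, *Il1b*, *Il18* and *Il33*, the antagonist *Il1rn*, and the receptor genes *Il1r1*, *Il1rap*, *Il1r2* and *Il1rl1*. Members were chosen by name, and each was read from the probe sets (groups of short probes against 1 transcript) that the platform annotation pairs with that gene and no other. This gave 15 of the 45037 probe sets that are not controls, and 8 of the 9 genes. *Il1rl1*, which encodes the interleukin-33 receptor ST2, was not analysed here. Of the 8 genes, 6 passed the filter on dim signals and were tested, among 11453 tested genes in all.

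The arrays came from the large intestine of 3 groups of mice, with 3 mice and 3 Affymetrix arrays in each group. *Winnie* mice are C57BL/6 and carry an ENU-induced missense allele of *Muc2*, the gene of the main secreted intestinal mucin, with tyrosine in place of a cysteine of the D3 domain. *Eeyore* mice are of mixed C57BL/6 and NOD-SCID background and carry another ENU-induced missense allele, with proline in place of a serine of the C-terminal D4 domain. Wild-type mice were C57BL/6. All 9 mice were labelled male and 8 weeks old, and each array held RNA of proximal and distal large intestine combined. Each strain descends from a single founder, so that strain background cannot be told apart from allele in the *Eeyore* comparisons.

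Members of this family share a signalling logic. A ligand binds its own receptor, the accessory chain IL-1RAcP (the product of *Il1rap*) joins the complex for IL-1 and IL-33, and the adaptor MyD88 carries the signal to NF-κB and the MAP kinases. IL-1β and IL-18 are made as inactive precursors that caspase-1 cleaves within inflammasomes, whereas IL-1α and IL-33 are released by damaged cells. In the gut, monocytes, macrophages and neutrophils are the best known sources of IL-1β, epithelial cells of IL-18, and stromal and endothelial cells of IL-33.

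*Muc2* signal was 32081 ± 5494 in *Winnie*, 35110 ± 2271 in *Eeyore* and 76999 ± 8135 in wild-type mice (SD, n = 3 each). The wild-type arrays went against their label of male: *Xist* averaged 38.4 in *Winnie*, 83.9 in *Eeyore* and 7849 in wild-type, and Y-linked *Eif2s3y* averaged 1291, 1259.7 and 17.6 in the same order. Sex therefore cannot be told apart from strain in any comparison with wild-type, and only the comparison of *Eeyore* with *Winnie* is free of it. *Winnie* mouse 2 also stood apart, with summed signals of 9223 for neutrophil markers and 8262 for squamous epithelial markers, against highest values of 2974 and 1544 in the other *Winnie* mice. Values without that mouse are given for *Il1b*, *Il33* and *Il1r1*, and none are given for the marker lists. In bulk tissue, fewer cells of a type and less RNA per cell cannot be told apart.

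Sequences before the transcription start are shown for *Il1b* and *Il1rn*, the 2 members called in both strains. The RefSeq windows below (build GRCm38.p6) give the 250 bases before the start, 5′ to 3′ on the strand of the gene, for the single annotated start of *Il1b* (chr2:129371140-129371389, minus strand) and for the most upstream and the next of the 3 annotated starts of *Il1rn* (chr2:24336610-24336859 and chr2:24345041-24345290, plus strand). Capitals mark matches on either strand to C/EBP (TTNNGNAA), AP-1 (TGANTCA) or PU.1 (GAGGAA) letters, where N is any base, or to the NF-κB consensus, and no 2 matches overlap in the windows shown.
Il1b: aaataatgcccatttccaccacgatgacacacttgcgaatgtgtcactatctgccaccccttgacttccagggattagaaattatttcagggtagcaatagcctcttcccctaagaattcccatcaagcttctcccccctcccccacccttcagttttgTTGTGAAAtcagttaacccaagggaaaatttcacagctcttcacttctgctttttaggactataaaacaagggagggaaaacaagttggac
Il1rn, first start: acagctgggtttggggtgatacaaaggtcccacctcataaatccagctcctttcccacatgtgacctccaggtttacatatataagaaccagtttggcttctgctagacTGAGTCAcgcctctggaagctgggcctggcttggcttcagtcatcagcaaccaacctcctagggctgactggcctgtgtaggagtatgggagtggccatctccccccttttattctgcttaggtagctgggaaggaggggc
Il1rn, second start: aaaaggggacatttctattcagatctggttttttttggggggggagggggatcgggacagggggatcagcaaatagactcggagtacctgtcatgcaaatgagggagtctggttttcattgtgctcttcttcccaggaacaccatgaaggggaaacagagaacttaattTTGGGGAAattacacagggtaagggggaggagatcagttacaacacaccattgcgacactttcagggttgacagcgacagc
*Il1b* held a C/EBP match at -91 to -84, where -1 is the last base before the start. The first start of *Il1rn* held an AP-1 match at -141 to -135, and the second start a C/EBP match at -81 to -74. The NF-κB consensus and the PU.1 letters were in none of these 3 windows. Over 32851 mouse promoter windows of this length, 7.25% held the NF-κB consensus, 36.8% the C/EBP letters, 6.75% the AP-1 letters and 23.3% the PU.1 letters. These matches describe the sequence only.

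Both the agonist *Il1b* and the antagonist *Il1rn* rose in both mutant strains. Of the 6 tested members, 2 changed in *Winnie* mice in limma's test at an adjusted p under 0.05, where 23.2% of all tested genes did. In *Eeyore* mice 5 of 6 changed, where 30.6% of all tested genes did: *Il1b* and *Il1rn* rose, and *Il1rap*, *Il18* and *Il33* fell. The falls were smaller than the rises and less stable, as described for each gene. The median log2 fold change of the 6 members was 0.09 in *Winnie* and -0.48 in *Eeyore* mice, beside -0.05 and -0.04 over all tested genes. Both strains were set against the same wild-type mice.

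**Figure D1:**
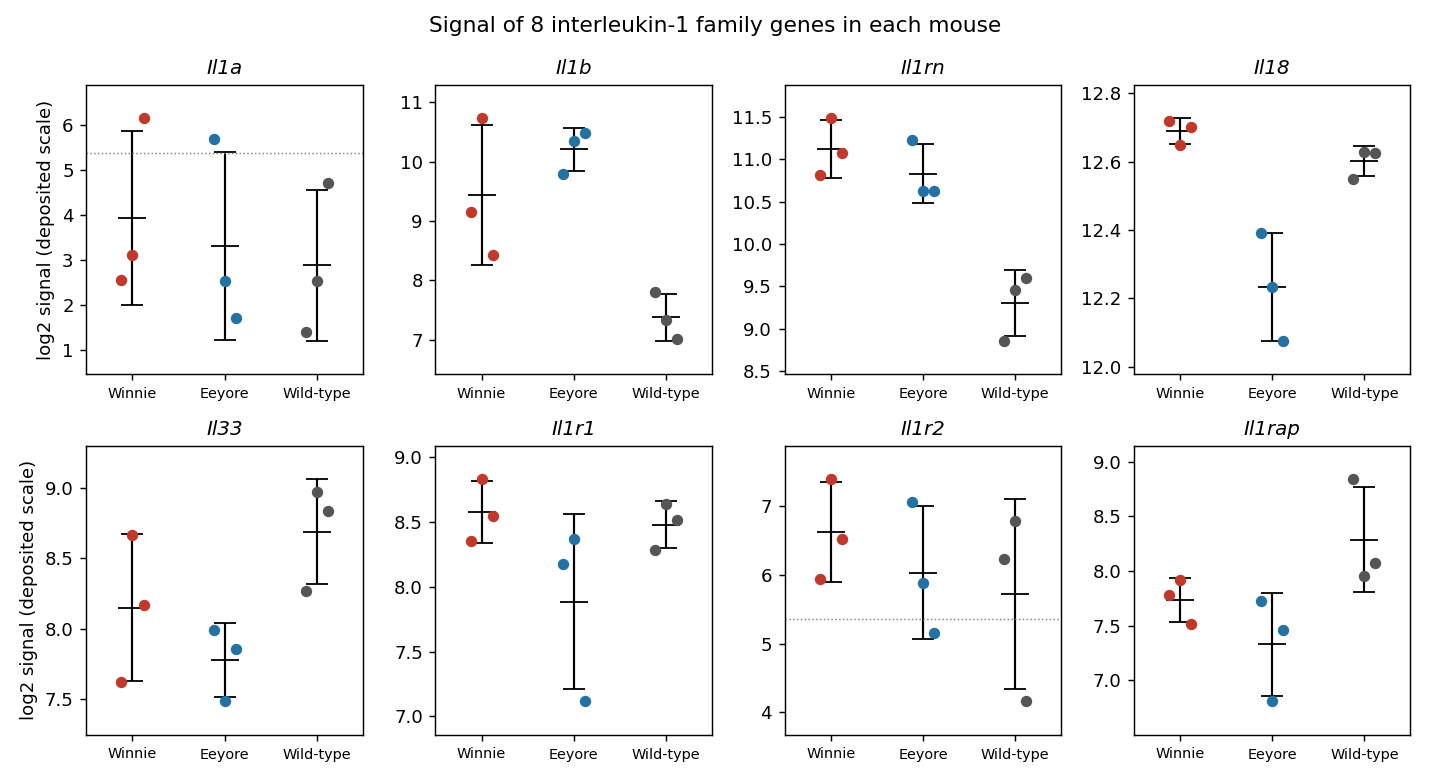
Log2 signal of 8 interleukin-1 family genes on the deposited scale, 1 panel a gene with its own axis range, in 3 *Winnie* (red), 3 *Eeyore* (blue) and 3 wild-type (grey) mice. Points are mice 1 to 3 in order from left, black marks show the mean and SD, and the dotted line in the *Il1a* and *Il1r2* panels is the dim level of 41.1. *Il1b* and *Il1rn* lay above wild-type in every mutant mouse, whereas the groups overlapped for *Il1a*, *Il1r1* and *Il1r2*.

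*Il1b* (chromosome 2, 129364569 to 129371164) encodes IL-1β. Its signal was 570.0, 1696 and 344 in *Winnie* mice 1 to 3, 886, 1298 and 1430.1 in *Eeyore* mice, and 222, 160.2 and 129 in wild-type mice. Every mutant mouse was above every wild-type mouse, and the *Winnie* mice were spread the widest. The signal was 4.17-fold higher in *Winnie* (log2 fold change 2.06, SE 0.45, adjusted p = 0.00803) and 7.11-fold higher in *Eeyore* mice (2.83, SE 0.45, adjusted p = 0.000915). *Eeyore* mice were 1.70-fold higher than *Winnie* mice, which did not pass the test (log2 difference 0.77, SE 0.45, adjusted p = 0.459), and the 2 strains overlapped. Without *Winnie* mouse 2 the *Winnie* log2 rise was 1.42 (adjusted p = 0.0125), and *Eeyore* exceeded *Winnie* mice by 1.41 (adjusted p = 0.0372).

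*Il1rn* (chromosome 2, 24336860 to 24351491) encodes the IL-1 receptor antagonist, which occupies the IL-1 receptor without signalling. Its brightest probe set read 1798, 2864 and 2149 in *Winnie*, 2400.3, 1581 and 1583 in *Eeyore*, and 464, 703 and 775 in wild-type mice. Mutant and wild-type mice did not overlap, and the lowest mutant mouse was well above the highest wild-type mouse. The rise was 3.52-fold in *Winnie* (log2 1.82, SE 0.23, adjusted p = 0.000439) and 2.87-fold in *Eeyore* mice (1.52, SE 0.23, adjusted p = 0.000697). The difference of *Eeyore* from *Winnie* mice did not pass the test (log2 -0.29, adjusted p = 0.597). *Il1rn* was read by 2 further probe sets, and the 3 together gave log2 rises of 1.10 to 1.82 in *Winnie* and 1.23 to 1.57 in *Eeyore* mice, all called. The study named *Il1b* and *Il1rn* from these same samples, so that their rises here are not independent evidence.

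The 2 genes can be set against each other within a mouse. The log2 signal of *Il1b* minus that of *Il1rn*, centred on its wild-type mean, was 0.27, 1.17 and -0.71 in *Winnie*, 0.49, 1.64 and 1.78 in *Eeyore*, and 0.87, -0.21 and -0.66 in wild-type mice. The *Winnie* mice spanned more than the range of wild-type, and 2 of the *Eeyore* mice lay above every wild-type mouse. In an exact two-sided permutation test over 3 against 3 mice, which cannot give a p below 0.1, the difference from wild-type was 0.24 in *Winnie* (p = 0.8) and 1.31 in *Eeyore* mice (p = 0.2), and *Eeyore* exceeded *Winnie* by 1.06 (p = 0.2). The design cannot pass a threshold of 0.05, so that these values are a description.

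*Il18* (chromosome 9, 50554700 to 50581841) encodes IL-18, a cytokine that the gut epithelium makes at rest. Its signal was 6746, 6417 and 6658 in *Winnie*, 5368, 4816 and 4316 in *Eeyore*, and 5998, 6334 and 6324 in wild-type mice. The *Eeyore* mice were below all others, and the *Winnie* mice were above wild-type by a small margin, which quantile normalization turned round (log2 -0.031). *Il18* fell by 0.37 on the log2 scale in *Eeyore* mice (SE 0.09, adjusted p = 0.0127), and its difference in *Winnie* mice did not pass the test (0.09, SE 0.09, adjusted p = 0.542). It was the 1 member of 6 called between the strains, where 2.59% of all tested genes were, at -0.46 for *Eeyore* over *Winnie* (SE 0.09, adjusted p = 0.0260). Fitted without the wild-type arrays, that difference had an adjusted p of 0.0740. With arrays centred on their medians, *Il18* was 0.04 lower in *Eeyore* mice (adjusted p = 0.790) and 0.50 higher in *Winnie* mice (adjusted p = 0.00410), whereas quantile normalization kept the *Eeyore* fall (log2 -0.50, adjusted p = 0.00258).

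*Il33* (chromosome 19, 29925113 to 29960718) encodes a nuclear cytokine of barrier and stromal cells. Its signal was 197, 405 and 287 in *Winnie*, 254, 179 and 232 in *Eeyore*, and 308, 500.2 and 456 in wild-type mice. All *Eeyore* mice were below all wild-type mice, and *Winnie* mouse 2 lay within the wild-type range. *Il33* was 1.88-fold lower in *Eeyore* mice (log2 -0.91, SE 0.29, adjusted p = 0.0322). In *Winnie* mice its log2 difference of -0.54 did not pass the test (adjusted p = 0.198), nor did that of *Eeyore* from *Winnie* mice (log2 -0.37, adjusted p = 0.585). Without *Winnie* mouse 2 the *Winnie* difference was -0.80, also uncalled (adjusted p = 0.0902). The *Eeyore* call was lost under quantile normalization (log2 -0.69, adjusted p = 0.0950), under median centring (-0.59, adjusted p = 0.156) and without an intensity trend (-0.91, adjusted p = 0.0519). It was also lost without *Eeyore* mouse 2 (-0.76, adjusted p = 0.107) or mouse 3 (-0.95, adjusted p = 0.0548) and without wild-type mouse 2 (-0.77, adjusted p = 0.117) or mouse 3 (-0.84, adjusted p = 0.0896).

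*Il1rap* (chromosome 16, 26581509 to 26730128) encodes the accessory chain that the IL-1 and IL-33 receptors share. Its brightest probe set read 219, 241 and 183 in *Winnie*, 211, 112 and 176 in *Eeyore*, and 459, 248 and 269 in wild-type mice. Neither mutant group overlapped wild-type, and wild-type mouse 1 was far above the other 2. *Il1rap* was 1.95-fold lower in *Eeyore* mice (log2 -0.96, SE 0.31, adjusted p = 0.0343). In *Winnie* mice its log2 difference was -0.55 (adjusted p = 0.219). The *Eeyore* call was lost without wild-type mouse 1 (log2 -0.68, adjusted p = 0.139), without *Eeyore* mouse 2 (-0.70, adjusted p = 0.122) or mouse 3 (-1.02, adjusted p = 0.0524), and under quantile normalization (-0.70, adjusted p = 0.119) and median centring (-0.63, adjusted p = 0.116). A further tested probe set of the gene gave -0.25 and -0.36 (adjusted p = 0.730 in *Winnie* and 0.575 in *Eeyore* mice). The other 3 were too dim to test, and their directions differed. Their log2 differences in *Winnie* and *Eeyore* mice were 1.43 and 1.59, 0.60 and 0.24, and -1.09 and -3.11.

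*Il1r1* (chromosome 1, 40222480 to 40316201) encodes the signalling receptor of IL-1α and IL-1β. Its tested probe set read 328, 456 and 373 in *Winnie*, 289, 331 and 139 in *Eeyore*, and 312, 400.0 and 366 in wild-type mice. *Eeyore* mouse 3 was low, and the 3 groups otherwise overlapped. No difference passed the test, at log2 0.10 in *Winnie* (SE 0.30, adjusted p = 0.845) and -0.59 in *Eeyore* mice (SE 0.30, adjusted p = 0.150), which was -0.21 without *Eeyore* mouse 3 (adjusted p = 0.515). A second, untested probe set read 0.77, 15.5 and 30.0 in *Winnie*, 42.8, 59.2 and 74.8 in *Eeyore*, and 6.45, 1.36 and 2.48 in wild-type mice. There the *Eeyore* mice were the highest, the opposite order to the tested probe set. Only the *Eeyore* values passed 41.1, the highest 25th percentile of signal on any array, called the dim level here.

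*Il1a* and *Il1r2* stayed under the filter. *Il1a* (chromosome 2, 129299609 to 129310186), the gene of IL-1α, read 5.86, 8.68 and 70.6 in *Winnie*, 51.1, 5.79 and 3.30 in *Eeyore*, and 2.65, 5.81 and 26.0 in wild-type mice, with 7 of 9 arrays under the dim level. *Il1r2* (chromosome 1, 40084692 to 40125230), the gene of the decoy receptor that binds IL-1 without signalling, read 61.7, 169 and 92.1 in *Winnie*, 134, 58.8 and 35.5 in *Eeyore*, and 75.4, 110.1 and 17.8 in wild-type mice. For both genes the 3 groups overlapped, and a difference was not detectable at these signals.

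Taken by range, 4 of the 6 tested members had 3 *Winnie* values outside the 3 wild-type values (*Il1b*, *Il1rn*, *Il1rap* and *Il18*), where 44.0% of all tested genes did. In *Eeyore* mice 5 of 6 did, *Il33* being the fifth, where 46.0% of all tested genes did. Between *Eeyore* and *Winnie* mice *Il18* alone of the 6 had no overlap, where 20.9% of all tested genes had none.

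**Figure D2:**
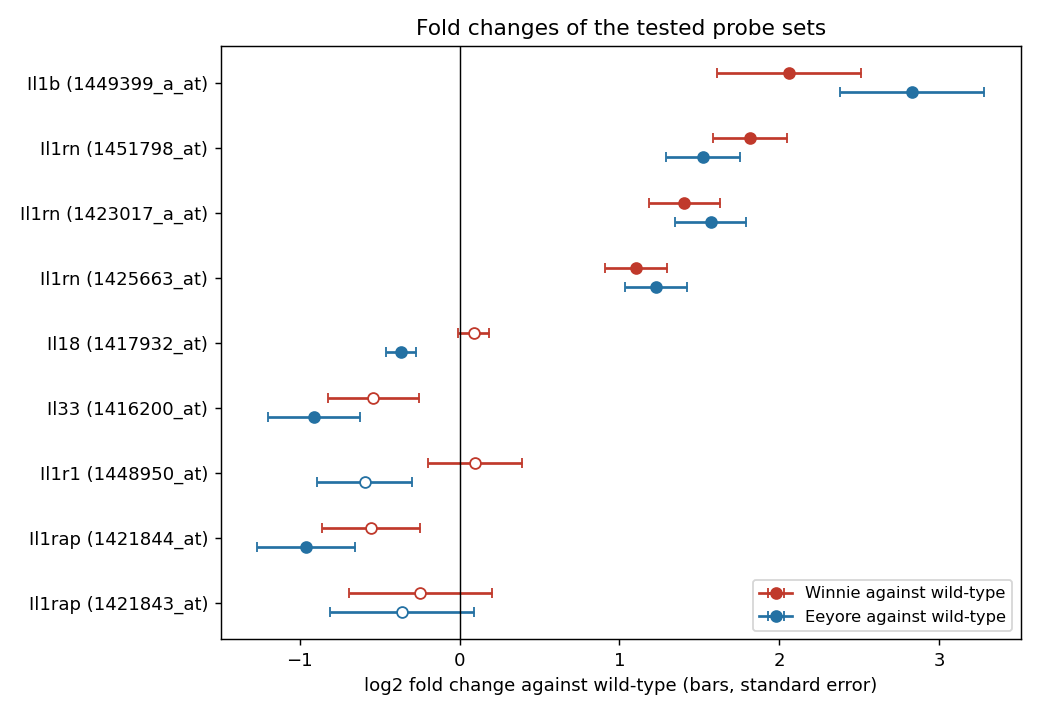
Log2 fold change against wild-type of the 9 tested probe sets of 6 members, named by gene and probe set, in *Winnie* (red) and *Eeyore* (blue) mice. Bars are standard errors of the limma fit (n = 3 mice each), filled points have an adjusted p under 0.05, and the line at 0 is no difference. All 3 probe sets of *Il1rn* lie at or above 1.10 in both strains.

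Summed signals of several cell type marker lists differed between mutant and wild-type mice. Macrophage and monocyte markers summed to 15386, 19488 and 15594 in *Winnie*, 14027, 23092 and 27944 in *Eeyore*, and 12762 to 13001 in wild-type mice. Of 14 tested, 3 rose and 1 fell in *Winnie* mice, and 5 rose and 1 fell in *Eeyore* mice. For this and the other marker lists, the background is that 11.3% of all tested genes rose and 11.9% fell in *Winnie* mice, whereas 14.0% rose and 16.6% fell in *Eeyore* mice. *Cd14*, a lipopolysaccharide co-receptor, rose by 0.92 on the log2 scale in *Winnie* mice (adjusted p = 0.0116), and *Fcgr1*, an IgG receptor, rose by 1.67 in *Eeyore* mice (adjusted p = 0.00248). *Mertk*, a receptor of resident macrophages, fell in both strains, at log2 -1.26 in *Winnie* and -1.27 in *Eeyore* mice (adjusted p = 0.000678 and 0.000368). The mouse with the highest macrophage sum in each strain, *Winnie* mouse 2 and *Eeyore* mouse 3, also had the highest *Il1b*, whereas the highest *Il1rn* was in *Winnie* mouse 2 and *Eeyore* mouse 1. The part of these cells in the rises of *Il1b* and *Il1rn* was not tested.

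Neutrophil markers summed to 2974, 9223 and 2622 in *Winnie*, 3842, 4380.2 and 9025 in *Eeyore*, and 3317 to 4089 in wild-type mice. Of 5 tested, 2 rose in *Winnie* and 3 in *Eeyore* mice, and 8 of the 13 listed were not tested. *S100a9*, an alarmin of neutrophils and monocytes, averaged 1011 ± 1088 in *Winnie*, 567 ± 181 in *Eeyore* and 30.1 ± 33.2 in wild-type mice (SD, n = 3 each), with wild-type under the dim level. *Ltf*, a granule protein, gave log2 differences of -0.93 and -1.48 that did not pass the test (adjusted p = 0.502 and 0.249). *Winnie* mouse 2 and *Eeyore* mouse 3 had the highest neutrophil sums of their strains, as they had for macrophage markers. The part of neutrophils in the *Il1b* rise was not tested.

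Squamous epithelial markers, which mark anal or rectal squamous lining in such a sample and whose cells also make *Il1rn*, summed to 1410.5, 8262 and 1544 in *Winnie*, 1081 to 1900.5 in *Eeyore*, and 4955 to 6299.9 in wild-type mice. None of the 8 tested was called in *Winnie* mice, of which mouse 2 was far above the others. In *Eeyore* mice 6 fell, with *Krt4* lowest (log2 -4.20, adjusted p = 0.0114). The median log2 fold change of the 8 was -1.27 in *Winnie* and -2.97 in *Eeyore* mice. The part of squamous cells in the *Il1rn* rise was not tested. Columnar epithelial markers, for the cells that make IL-18, summed to 268256 to 294853 in *Winnie*, 278374 to 305013 in *Eeyore*, and 239645 to 257475 in wild-type mice. Of these 12 markers 3 rose in *Winnie* and 6 in *Eeyore* mice and none fell, and the highest was *Krt20* (log2 0.94 and 0.77). The part of epithelial cells in the *Il18* difference was not tested.

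Smooth muscle markers fell in both strains, 15 of 15 in each, with sums of 98326 to 107512 in *Winnie*, 79434 to 89059 in *Eeyore* and 216580 to 220010 in wild-type mice. On the deposited scaling, fibroblast markers fell in 3 of 12 in *Winnie* and 6 of 12 in *Eeyore* mice, and endothelial markers in 3 of 8 and 4 of 8. Adipocyte markers fell in 3 of 4 in each strain, with sums of 2475 to 6479 in *Winnie*, 636 to 1856 in *Eeyore* and 8931 to 11051 in wild-type mice. *Il33* and *Il1rap* fell in *Eeyore* mice beside these lists, and their differences in *Winnie* mice did not pass the test. The part of the stromal cells in those differences was not tested. Of the mast cell markers, which cover a responder of IL-33, 9 of 11 were not tested. *Kit*, which also marks the pacemaker cells of gut muscle, fell, at log2 -1.64 in *Winnie* and -1.97 in *Eeyore* mice (adjusted p = 0.000523 and 9.86e-05). *Cma1*, the other tested marker, did not pass the test, at log2 -0.56 in *Winnie* and 0.47 in *Eeyore* mice (adjusted p = 0.449 and 0.505). Mast cell sums were 809 to 963 in *Winnie*, 1417 to 1610 in *Eeyore* and 1336 to 1452 in wild-type mice.

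**Figure D3:**
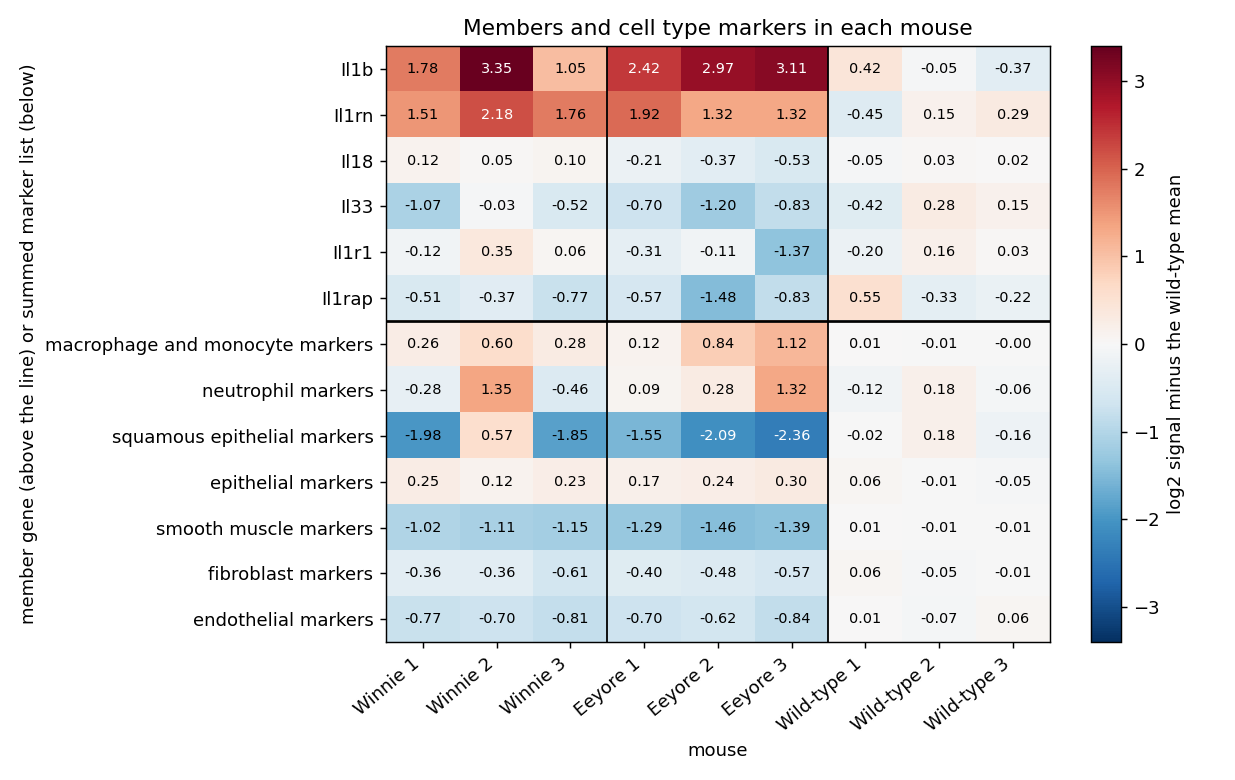
Log2 signal minus the wild-type mean for the 6 tested members (above the line) and for the summed signal of 7 marker lists (below it), in each of 3 *Winnie*, 3 *Eeyore* and 3 wild-type mice from left. Red is above and blue below the wild-type mean, and each cell gives its value. *Il1b* ran between 1.05 and 3.35 over the mutant mice, and smooth muscle sums between -1.46 and -1.02.

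Among the other family genes, 3 of 12 were tested. *Il18bp*, the gene of a secreted protein that neutralises IL-18, had a signal of 102, 375 and 196 in *Winnie*, 216, 846 and 1381 in *Eeyore*, and 147, 138 and 141 in wild-type mice. All *Eeyore* mice were above wild-type, and *Winnie* mouse 1 was below it. *Il18bp* rose by 2.15 on the log2 scale in *Eeyore* mice (SE 0.59, adjusted p = 0.0170), and the *Winnie* difference of 0.46 did not pass the test (adjusted p = 0.607), nor did that between the strains (1.69, adjusted p = 0.187). *Il1rl2*, the IL-36 receptor, and *Sigirr*, an inhibitory receptor of the family, were not called. The IL-36 ligands and the IL-18 receptor genes *Il18r1* and *Il18rap* were under the filter.

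Genes of the inflammasome and of IL-1 processing were higher where they moved. Of 13 tested, 3 rose and none fell in *Winnie* mice, where 11.3% of all tested genes rose, and 5 rose and none fell in *Eeyore* mice, where 14.0% rose. With median centring 7 rose in *Winnie* and 8 in *Eeyore* mice. That scaling raised the background too. Of all 22519 tested probe sets it called 7234 higher in *Winnie* and 6350 in *Eeyore* mice, against 2195 and 2747 as deposited. *Pycard*, the adaptor ASC that links sensors to caspase-1, read 16839, 21895 and 18533 in *Winnie*, 20217, 22375 and 21508 in *Eeyore*, and 14291, 12044 and 10343 in wild-type mice. Every mutant mouse exceeded every wild-type mouse, by a log2 fold change of 0.65 for *Winnie* (adjusted p = 0.00369) and 0.82 for *Eeyore* (adjusted p = 0.000622). *Casp8*, a death-receptor caspase that can also cleave IL-1β, rose by 0.94 and 0.79 (adjusted p = 0.00101 and 0.00172). *Capn2*, a calpain of the protease family that matures IL-1α, rose by 0.68 and 0.78 (adjusted p = 0.00111 and 0.000293).

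*Casp1* itself, which cleaves both IL-1β and IL-18, read 6674, 5730.3 and 6346 in *Winnie*, 5847, 6670.0 and 7491 in *Eeyore*, and 5036, 5009 and 5135 in wild-type mice. Its log2 rise of 0.39 passed the test in *Eeyore* mice (adjusted p = 0.0150), and its log2 difference of 0.30 in *Winnie* mice did not (adjusted p = 0.0574). *Casp1* lay outside the rule for named genes and was added after its values were seen. *Gsdmd*, the pore-forming protein through which IL-1β leaves the cell, rose by 0.61 in *Eeyore* mice (adjusted p = 0.0141), with a difference of 0.33 in *Winnie* mice that did not pass the test (adjusted p = 0.164). The sensor *Nlrp3* was under the filter.

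Signalling genes close to the receptor were called in both directions, near or below the shares over all tested genes. Of 22 tested, 1 rose and 2 fell in *Winnie* mice, where 11.3% of all tested genes rose and 11.9% fell. In *Eeyore* mice 2 rose and 4 fell, where 14.0% of all tested genes rose and 16.6% fell. *Myd88*, the adaptor of the whole family, rose by 0.46 and 0.53 (adjusted p = 0.0480 in *Winnie* and 0.0206 in *Eeyore* mice). *Pik3r1*, a regulatory subunit of PI 3-kinase, fell in both, at log2 -0.80 in *Winnie* and -0.98 in *Eeyore* mice (adjusted p = 0.000832 and 0.000144). *Tab1*, a partner of the kinase TAK1, fell by 0.94 in *Winnie* mice (adjusted p = 0.00911). Its log2 difference of -0.44 in *Eeyore* mice did not pass the test (adjusted p = 0.135). *Peli2*, a ubiquitin ligase of IRAK complexes, and the kinase *Irak2* fell in *Eeyore* mice, at log2 -1.36 and -0.49 (adjusted p = 0.00453 and 0.0484). None of the 22 was called between the strains, where 2.59% of all tested genes were.

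Genes that IL-1 is known to induce, many of which other cytokines induce as well, rose where they changed. Of 18 tested, 5 rose in *Winnie* and 10 in *Eeyore* mice and none fell, where 11.3% and 14.0% of all tested genes rose. The list was chosen with earlier results of these data known. The study named *Socs3* and lipocalin-2 (*Lcn2*) as increased in these same samples, so that these counts are not independent evidence. The *Winnie* count was 9 with quantile normalization and 15 with median centring. Of all 22519 tested probe sets, 2195 were called higher in *Winnie* mice as deposited, 2387 with quantile normalization and 7234 with median centring. The median log2 fold change of the 18 genes was 0.66 in *Winnie* and 0.76 in *Eeyore* mice. *Socs3*, a feedback inhibitor of cytokine receptors, read 1489, 2892 and 1378 in *Winnie*, 1641, 2022 and 1599 in *Eeyore*, and 404, 569 and 396 in wild-type mice, with no overlap between mutant and wild-type. It rose by 2.01 in *Winnie* (SE 0.25, adjusted p = 0.000389) and 1.95 in *Eeyore* mice (SE 0.25, adjusted p = 0.000255). *Mmp13*, a collagenase, rose by 3.55 and 1.92 (adjusted p = 0.000401 in *Winnie* and 0.00757 in *Eeyore* mice). *Cxcl5*, a neutrophil chemokine, rose by 2.13 in *Winnie* mice (adjusted p = 0.0102). *Il11*, a stromal cytokine, and *Lcn2*, a siderophore-binding protein, rose by 2.10 and 1.60 in *Eeyore* mice (adjusted p = 0.0344 and 0.0145). These genes are named by their rank in 1 strain, and their values in the other are not given. Between the strains only *Mmp3* was called, and 17 of the 18 were not, where 2.59% of all tested genes were called.

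*Mmp3*, the stromelysin, read 239.5, 776 and 580.5 in *Winnie*, 110.5, 36.4 and 46.8 in *Eeyore*, and 101, 70.3 and 53.2 in wild-type mice. All *Winnie* mice were above all others, at log2 2.72 over wild-type (SE 0.52, adjusted p = 0.00382), and the log2 difference of *Eeyore* over *Winnie* was -3.05 (adjusted p = 0.00730). Counts of these genes leaned on single mice and on scaling. In *Eeyore* mice 5 rose without *Eeyore* mouse 3 and 4 without wild-type mouse 1. Among genes that IL-18 and IL-33 induce or that mark their responding cells, 2 of 12 were tested. *Rora*, a nuclear receptor listed here for innate lymphoid cells, fell in both strains. Its log2 fold change was -1.25 in *Winnie* and -1.14 in *Eeyore* mice (adjusted p = 0.0129 and 0.0153). The part of innate lymphoid cells in that fall was not tested. The other tested gene was not called in either strain, and 11.9% and 16.6% of all tested genes fell. The median log2 fold change of the 2 genes was -0.70 in *Winnie* and -0.35 in *Eeyore* mice.

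**Figure D4:**
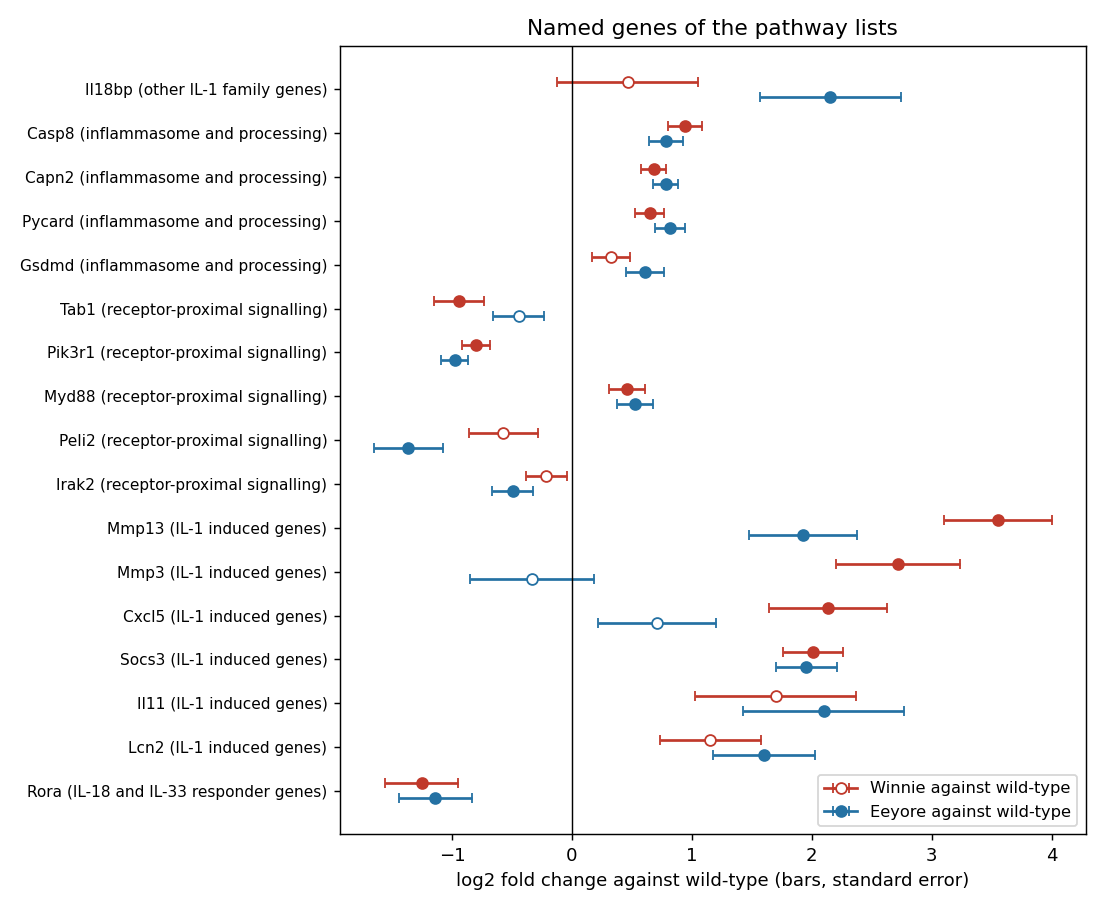
Log2 fold change against wild-type of 17 named genes of the pathway lists in *Winnie* (red) and *Eeyore* (blue) mice, with the list in brackets. Bars are standard errors of the limma fit (n = 3 mice each) and filled points have an adjusted p under 0.05. *Socs3* lies at 2.01 and 1.95, whereas *Mmp3* lies at 2.72 in *Winnie* and -0.34 in *Eeyore* mice.

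For each called member, the 3 nearest of 11447 other tested genes over the 9 mice are named. They were picked as the nearest, so that distances under the median follow from the choice. Likeness was measured as the root mean square difference between log2 signals after each gene was centred on its own mean. Nearest to *Il1rn* was *Anxa8*, an annexin, at 0.13, followed by *Cenpw* at 0.20 and *Rab32* at 0.26, where the median over 11447 genes was 0.92. Nearest to *Il1b* were *Pla2g2a*, a secreted phospholipase, and *Ptk6*, an epithelial kinase, both at 0.48, and *Mfsd2a* at 0.57, where the median was 1.39. For *Il33* they were *Cgnl1* at 0.10, *Ulk2* at 0.19 and an immunoglobulin kappa variable gene at 0.24 (median 0.57). For *Il18* they were *Nfyb* at 0.06, *Cdadc1* at 0.07 and *Usp34* at 0.07 (median 0.37), and for *Il1rap* they were *Vmac* at 0.18, *Lmbr1l* at 0.19 and *Sorcs2* at 0.19 (median 0.58). The 9 points share 3 strains, so that a like strain difference alone makes 2 genes alike by this measure.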

How the data were processed

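The authors deposited 1 linear signal intensity per probe set and array, for 45101 probe sets on 9 arrays. Each array has a mean of 500 after trimming 2% at both ends. The signal algorithm is not given in the sources used here, and no detection calls were used. Array medians were 88.1 to 95.4 in *Winnie*, 95.8 to 99.5 in *Eeyore* and 119 to 129 in wild-type mice.

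The log2 of each intensity was used, with no scaling added. The 22519 probe sets with a mean log2 signal of at least 6.43 (50th percentile, a signal of 85.9) were fitted as group means over all 9 arrays with limma 3.58.1 in R 4.3.3 (eBayes with an intensity trend). Benjamini-Hochberg adjustment ran over all tested probe sets of a contrast, with a threshold of 0.05. For each gene the brightest probe set that is paired with no other gene was used (34945 probe sets had 1 symbol, 932 several and 9160.0 none). Mice were grouped by their labels. With 3 mice a group, precision is limited by their number.

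Members and gene lists were chosen with earlier results of these data known. Named were all members, up to 4 called genes without overlap from each pathway list and strain, the extreme markers of each list, and the 3 genes nearest to each called member. Alternatives were quantile normalization, median centring, other filters, a pseudocount of 32, a floor, no trend, a robust fit, only the groups compared, a replicate block, the mean over probe sets, a 2-fold threshold and leaving out each mouse. Those for the pathway counts were added after seeing the data. The fit was tested on simulated data. Promoter windows and coordinates are from RefSeq (GRCm38.p6). Figures were drawn with matplotlib 3.10.9.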

Additional observations from a re-analysis of the deposited data

Results flagged for a closer look

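*Il18* is listed because its effects in the 2 strains differed by a test of the difference itself. Its log2 fold change against wild-type was -0.37 in *Eeyore* and 0.09 in *Winnie* mice, a difference of -0.46 (SE 0.09, adjusted p = 0.0260), and all 3 *Eeyore* mice were below all 3 *Winnie* mice. Both strains share the wild-type mice, and the difference is that between *Eeyore* and *Winnie* mice themselves. Leaving out 1 mouse at a time, it ran between -0.53 and -0.38, with a highest adjusted p of 0.111. Groups of 3 mice were not tested for outlying mice.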

How the results depend on the processing

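The rises of *Il1b* and *Il1rn* were called in both strains under all 20 alternatives that tested them, with adjusted p between 5.63e-05 and 0.0314. The falls in *Eeyore* mice were less stable. Their count of 5 called members was 3 with quantile normalization, 2 with median centring, 3 with the filter at the 75th percentile, 3 without an intensity trend, 2 at 2-fold or more, and 3 to 5 on leaving out 1 mouse. The 1 call between *Eeyore* and *Winnie* mice was 0 without an intensity trend, 0 with only the groups compared, 0 at 2-fold or more, and 0 to 2 on leaving out 1 mouse. In *Winnie* mice the count stayed at 2 on leaving out any 1 mouse. The cause of these changes was not tested.

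The *Winnie* difference of *Il1r1* (0.10) ran between -0.030 and 0.21 on leaving out 1 mouse and turned below 0 without *Winnie* mouse 2 (-0.030) or wild-type mouse 1 (-0.0017), and that of *Il18* (0.09) turned to -0.031 with quantile normalization, all uncalled. *Il18* lost its *Eeyore* call without an intensity trend (adjusted p = 0.0544), and *Il1rap* without the filter (0.0624) and with only the groups compared (0.0539). Inflammasome and processing genes called higher with median centring were 7 (*Winnie*) and 8 (*Eeyore*), and IL-1 induced genes called higher in *Winnie* mice were 9 with quantile normalization and 15 with median centring, against 3, 5 and 5 on the deposited scaling. IL-1 induced genes called higher in *Eeyore* mice were 4 to 10 on leaving out 1 mouse. Median centring moved the median log2 fold change of all tested probe sets to 0.32 in *Winnie* and 0.24 in *Eeyore* mice, where it was -0.09 in each as deposited and 0.03 in each with quantile normalization. The share of calls that were higher was 45.4% in *Winnie* and 41.7% in *Eeyore* mice as deposited, 54.5% and 51.0% with quantile normalization, and 89.5% and 77.2% with median centring.

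Mouse numbers are shared by the strains. With the number as a replicate block, 2, 5 and 1 members were called in *Winnie*, *Eeyore* and between them, the same counts as without it. Deviations of same-numbered mice correlated between -0.00821 and 0.164 over 9 pairs, with 1 above 0.1. This check cannot tell whether same-numbered mice were handled together. Signals near the dim level of 41.1 limit *Il1a*, *Il1r2* and the second *Il1r1* probe set.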
